A study of Danio rerio with 24 samples.

Results

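Ovarian RNA from adult female zebrafish that had been exposed to 0.3 ppb atrazine as embryos was compared with ovarian RNA from unexposed females of the same study. Atrazine is a herbicide and a suspected endocrine disrupting chemical. The comparison rests on 7 of the 24 arrays of the series, which are 2 of the 6 arrays at 0.3 ppb (replicates 2 and 4) and 5 arrays at 0 ppb (replicates 2 to 6). The 0.3 ppb arrays were chosen from measured values, because they are the only readable ones at this dose on which the oocyte genes zp2.2, zp2.3 and cldnd are high. The 0.3 ppb group consists of wild-type AB females kept in 0.3 ppb atrazine between 1 and 72 hours post fertilization, then raised in clean water and sampled at 5 to 6 months post fertilization. The 0 ppb group is of the same strain, sex and age, and had no atrazine in that window. A replicate is a group of embryos started on its own day, and the methods speak of ovaries from 6 females without saying outright that each array holds the RNA of 1 fish. With 2 arrays in the exposed group, the values below are mainly a description.

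The zebrafish ovary holds follicles of all stages at once, each an oocyte wrapped in steroid-producing follicle cells. Growing oocytes make the egg coat and store maternal transcripts, whereas vitellogenins, the yolk precursors, are made in the liver under estrogen and taken up from the blood. Follicle cells make sex steroids from cholesterol, which Star carries into mitochondria, where side-chain cleavage by Cyp11a1 needs electrons passed on by ferredoxin, and aromatase (cyp19a1a in the ovary) then makes estradiol.

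Each replicate had its own slide of 4 arrays, with 0, 0.3, 3 and 30 ppb at positions 1 to 4 of every slide, so that position on the slide and dose cannot be told apart. On the 7 arrays, 67.5 to 87.2% of the noncontrol spots lay well above background and none was saturated. The slides were scanned in 3 sessions, and replicates 5 and 6 at 0 ppb shared a session that holds neither of the 0.3 ppb arrays. Those 2 control arrays stood apart from the rest. Between 14687 and 19179 of 70432 targets differed at least 4-fold between them and the 0.3 ppb arrays (20.9 to 27.2%), against 3.57 to 5.21% between the 0.3 ppb arrays and the controls of replicates 2 to 4. The median difference of all targets, 0.3 ppb minus 0 ppb, was accordingly -0.36 on the log2 scale over all 5 controls and -0.03 within the sessions of replicates 2 to 4. The shift was not the same for all genes. Between those 2 sets of controls the median of 16 brain markers went from -0.59 to -0.15. That of 17 egg coat genes, which are bright, went only from 0.30 to 0.26. The median of all targets is therefore a rough reference for the differences below, and less apt for bright genes. Markers of brain tissue, taken as a list of 16 tested genes, had a median level of -5.32 and -5.10 on the 0.3 ppb arrays, against -5.04, -5.09, -5.03, -3.21 and -3.88 on the 0 ppb arrays in replicate order, so that the higher brain values sat in the controls of the separate session. On the 0 ppb arrays in that order, muscle markers had medians of -4.40, -4.30, -4.35, -2.91 and -3.13. Testis markers had -3.91, -4.18, -3.99, -3.01 and -3.12, while immune markers did not follow. The median spot intensity before scaling was 339 and 266 on the controls of the separate session, against 193, 135 and 109 in replicates 2 to 4. The rise was thus not particular to brain genes, and its source was not tested. In bulk tissue, fewer cells of a type and less RNA per cell cannot be told apart.

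The levels given here are log2 signals minus the 75th percentile of the array, so that 0 is the signal that 75% of spots do not exceed. The egg coat gene zp2.2 had levels of 8.09 and 8.29 on the 0.3 ppb arrays of replicates 2 and 4, against 7.65, 8.06, 8.03, 7.74 and 7.94 on the 0 ppb arrays of replicates 2 to 6. Zp2.3, another egg coat gene, had 8.13 and 8.37 at 0.3 ppb, against 7.70, 8.11, 8.26, 7.83 and 8.06 at 0 ppb. The claudin gene cldnd, expressed in oocytes, had 8.09 and 8.20 at 0.3 ppb, against 7.65, 8.02, 7.93, 7.87 and 7.90 at 0 ppb. All 7 arrays therefore carry these oocyte transcripts at like levels, which says nothing of other tissues in the samples. The readable 0.3 ppb arrays left out had zp2.2 levels of -1.38 (replicate 3), -2.10 (replicate 5) and -2.50 (replicate 6), so the lowest value inside the choice is 8.09 and the highest outside it -1.38. Zp2.3 and cldnd were less far down in replicate 3, at 1.21 and 1.27. The slide of replicate 1 was not used at any of its 4 positions. The software marked its grid as poor, and 19.8 to 38.2% of its noncontrol spots per array lay well above background. The levels of zp2.2, zp2.3 and cldnd made the choice and are no finding.

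**Figure D1:**
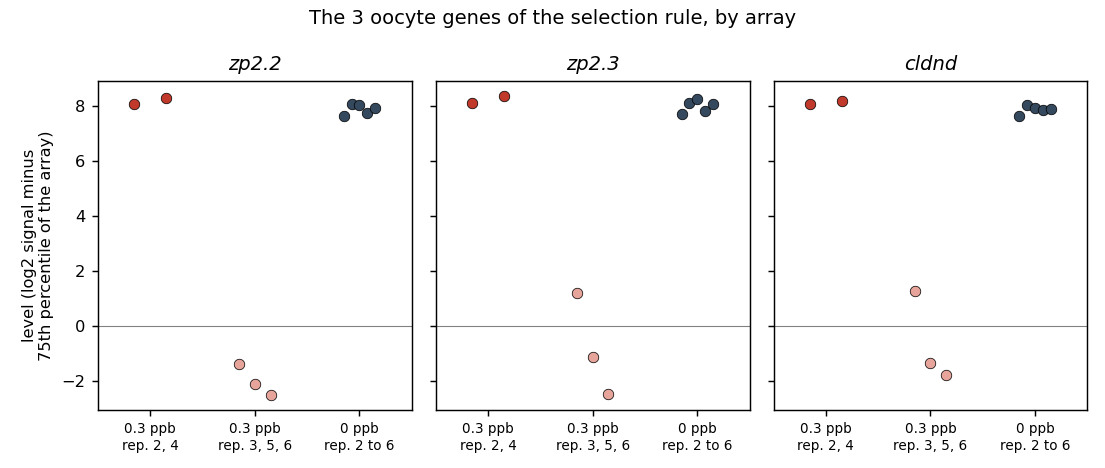
Levels of zp2.2, zp2.3 and cldnd (y axis, log2 signal minus the 75th percentile of the array), one point per array, for the 2 chosen 0.3 ppb arrays, the 3 readable 0.3 ppb arrays left out and the 5 arrays at 0 ppb. For zp2.2 the 2 chosen arrays lie at 8.09 and 8.29, near the controls, while the 3 others lie between -2.50 and -1.38.

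Over all genes, no target passed the test. A target is a transcript as annotated on the array, with its probes averaged. In limma on 17 arrays (the 7 compared plus 10 at 3 and 30 ppb, which add to the estimate of the spread), 0 of 70432 targets were higher (0.0%) and 0 were lower (0.0%) at a Benjamini-Hochberg adjusted p under 0.05 and at least 1.5-fold, and the smallest adjusted p was 0.256. At an unadjusted p under 0.05 and the same fold, 314 targets were higher (0.446%) and 2375 lower (3.37%). With the replicate number as a block the unadjusted counts were 943 higher and 3164 lower, and the adjusted counts stayed at 0 in both directions. The rule of the study's methods, a test per target over the 4 doses with a 1.5-fold limit, gave 63 targets higher (0.0894%) and 389 lower (0.552%), and 0 in either direction once adjusted. With known changes put into simulated arrays, the limma fit found 0% of targets changed by 1 log2 unit, 34% of those changed by 2 and 71.5% of those changed by 4, so changes of a few fold in single genes were mostly not detectable with these arrays.

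The individual arrays can still be set side by side. Of 69981 targets with a value on all 7 arrays, 2525 (3.61%) had both 0.3 ppb arrays above every 0 ppb array, and so each above the control of its own number, and 7229 (10.3%) had both below in the same way. This split followed the scaling. Of the targets outside the range, 25.9% were higher with the 75th percentile scaling, 54.8% after quantile normalization (3765 higher, 3102 lower) and 61.1% with a model-based background correction (normexp) (2939 higher, 1873 lower). It also followed the level. Among targets with a mean 0 ppb level under -4, 0.611% were above and 12.7% below, whereas among those at 0 or more, 13.2% were above and 2.0% below. Among targets well above background on all 7 arrays, 5.14% were above and 8.66% below. Of 63597 targets with a value on all 17 arrays, 133 (0.209%) had both 0.3 ppb arrays above all 15 other arrays with an ovary profile, at 0, 3 and 30 ppb, and 1444 (2.27%) had both below all 15. Those 15 include 2 arrays at 3 and 30 ppb with a grid marked as poor. Among the 15, the 3 ppb array of replicate 6 had 40.6% of spots well above background. The lowest such level on it was -4.18, so it says little about dimmer targets. The direction of the pairs was the same in 51.8% of targets.

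Genes were named where the target had a symbol, was well above background on all 7 arrays and lay outside the 0 ppb range in both pairs. Of 11814 symbols well above background on all 7 arrays, 1098 (9.29%) were higher and 620 (5.25%) lower, and the 10 in each direction with the largest smaller pair difference are described. None passed the adjusted test. All 20 kept their sign under each of the 19 other settings tried. Where a setting only left out arrays, the way the genes were chosen fixed that sign in advance. It did so with array weights too, because weighted means of groups that do not overlap keep their order. With the replicate number as a block on the 7 arrays, only the same-numbered pairs inform the difference, so that sign was fixed as well. In these settings the kept sign is therefore no test of the genes.

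Among the lower genes, the one with the smallest p was ripply2, which encodes a repressor that works with T-box factors in the somites of the embryo. Its levels were -5.79 and -6.05 at 0.3 ppb, against -3.70, -3.78, -3.74, -3.49 and -4.26 at 0 ppb. All 5 of its probes were lower at 0.3 ppb, and both arrays lay below each of the 15 other ovary arrays. Levels that low could hardly be read on the 3 ppb array of replicate 6. The difference was -2.12 ± 0.34 (log2, SE), with an adjusted p of 0.256 in limma (0.00694 to 1.00 over the settings tried).

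Ferredoxin 1b, fdx1b, is the electron carrier of mitochondrial steroid synthesis in zebrafish. It had levels of -1.41 and -1.86 at 0.3 ppb, against 0.46, 0.10, 0.47, -0.36 and -0.03 at 0 ppb. That the groups did not overlap and both pairs were lower follows from how the gene was chosen. At 3 and 30 ppb its lowest level on 10 arrays was -0.40. The difference was -1.76 ± 0.35 (SE, adjusted p = 0.828), with -1.87 in the pair of replicate 2 and -2.33 in the pair of replicate 4. Both of its probes were lower.

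The salt-inducible kinase gene sik2a had -1.26 and -2.20 at 0.3 ppb, against 1.79, 1.71, 0.15, 1.86 and 1.25 at 0 ppb. Its difference was -3.08 ± 0.68 (SE), and 1 of the 10 arrays at 3 and 30 ppb was as low. Sdhda, a subunit gene of mitochondrial complex II, had -6.07 and -6.11 at 0.3 ppb, against -3.0, -4.50, -3.98, -4.18 and -3.11 at 0 ppb. The 0.3 ppb arrays were again below all 15 others, with the same limit for the 3 ppb array of replicate 6.

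Kyat1, whose enzyme turns kynurenine into kynurenic acid, had the widest gap. Its levels were -3.76 and -6.76 at 0.3 ppb, against -0.11, -0.15, 0.01, -0.05 and -0.03 at 0 ppb. The controls were tight (mean -0.07 ± 0.06, SD, n = 5), but the arrays at 3 and 30 ppb spread from -6.63 to 1.44, and 5 of those 10 were no higher than the higher 0.3 ppb array. Low and high levels of kyat1 thus both occurred among the arrays at 3 and 30 ppb. That no control was as low as the 0.3 ppb arrays follows from how the gene was chosen.

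The AP-1 transcription factor gene junbb had -1.05 and -1.07 at 0.3 ppb, against 2.5, 2.43, 0.94, 2.41 and 2.2 at 0 ppb. The arrays at 3 and 30 ppb ran from -2.37 to 2.01, so that low values were not confined to the lowest dose. The remaining lower genes were nova1 (a splicing regulator of neurons, -5.78 and -3.38 at 0.3 ppb, against -2.65 to -0.88 at 0 ppb) and cfap52 (a gene of cilia and flagella, -3.03 and -4.14, against -2.24 to -1.01). Also lower were spon1b, an extracellular matrix gene (-4.42 and -4.01 at 0.3 ppb, against -3.61 to -0.62 at 0 ppb), and adamts15a, a secreted protease gene (-6.86 and -4.89, against -4.76 to -2.98). After quantile normalization spon1b and adamts15a no longer had both arrays below the range, and with the normexp background adamts15a did not.

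The higher genes were of another kind. For several of them the 0 ppb arrays were spread between low and high levels, and the 0.3 ppb arrays both took the high one. Irs2a, an adaptor of the insulin receptor, had -1.25 and -0.67 at 0.3 ppb, against -6.93, -1.40, -6.32, -1.98 and -5.45 at 0 ppb. The controls of replicates 2 and 4 are low, which makes both pair differences wide (5.67 and 5.66), while the control of replicate 3 was just under the lower exposed array. On the arrays at 3 and 30 ppb irs2a ran from -6.45 to -0.95.

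Pdx1, a homeobox gene of the pancreas and duodenum, had 0.05 and 1.18 at 0.3 ppb, against -3.08, -0.09, -2.24, -0.06 and -3.20 at 0 ppb. Slc38a5b, an amino acid transporter gene, had -0.06 and 0.16 at 0.3 ppb, against -2.06, -0.23, -1.95, -0.13 and -2.56 at 0 ppb. Frg1, a gene of RNA processing, had 1.54 and 1.5 at 0.3 ppb, against -0.43, 1.37, -0.95, 1.27 and 1.09 at 0 ppb. In pdx1, slc38a5b and frg1 the highest control came just under the lower 0.3 ppb array. Arrays at 3 or 30 ppb reached 1.02, 0.32 and 1.48 for these genes in that order.

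The gene zgc:158432 had 1.94 and 1.47 at 0.3 ppb, against -0.01, 0.36, -5.87, 0.50 and -4.14 at 0 ppb. The 10 arrays at 3 and 30 ppb ran from -6.17 to 2.24, so low and high levels occurred among those arrays too.

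Dnai4 encodes a chain of the dynein that moves cilia, and its highest controls were those of the separate scan session. It had -2.74 and -2.41 at 0.3 ppb, against -4.31, -4.37, -4.10, -3.40 and -3.36 at 0 ppb, and its difference of 1.33 ± 0.40 (SE) was measured by 1 probe. Ints14, a subunit gene of the Integrator complex, had -0.17 and -0.80 at 0.3 ppb, against -2.02, -2.57, -3.06, -2.37 and -0.89 at 0 ppb. All 4 of its probes were higher, but its highest control was just under the lower 0.3 ppb array. Coch, which encodes the matrix protein cochlin, had -1.06 and -3.36 at 0.3 ppb, against -4.60, -4.84, -5.48, -4.25 and -3.76 at 0 ppb. Its 2 exposed arrays differed from each other by more than the 5 controls did. Arrays at 3 or 30 ppb reached -2.46 for dnai4, -0.14 for ints14 and -0.01 for coch.

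Lim2.1, related to a membrane protein of the lens, had -4.90 and -2.57 at 0.3 ppb, against -7.60, -7.37, -6.09, -6.96 and -6.74 at 0 ppb, with all 4 probes higher. Zcchc24, a zinc finger gene, had -3.18 and -2.20 at 0.3 ppb, against -5.41 to -4.09 at 0 ppb, but of its probes on the array, including 1 not kept for the level, 2 were higher and 4 lower. Arrays at 3 or 30 ppb reached -0.39 for lim2.1 and -0.52 for zcchc24, above both 0.3 ppb arrays.

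**Figure D2:**
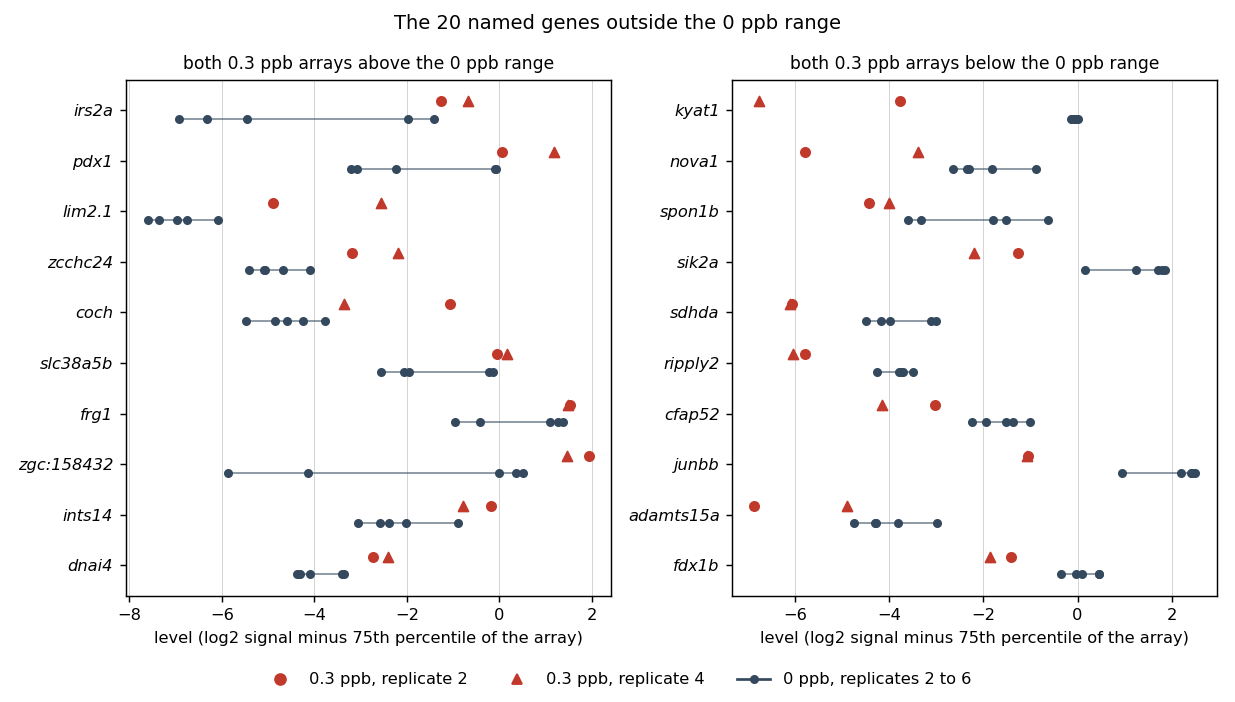
Levels (x axis, log2 signal minus the 75th percentile of the array) of the 20 named genes, one row per gene, with the 0.3 ppb arrays of replicates 2 (red circle) and 4 (red triangle) above the 5 arrays at 0 ppb (dark points, joined by a line from lowest to highest). Kyat1 controls lie between -0.15 and 0.01 while its 0.3 ppb arrays lie at -3.76 and -6.76, and irs2a controls run from -6.93 to -1.40, just short of the 0.3 ppb arrays.

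Steroid synthesis was the pathway of interest for an endocrine disruptor, and 25 of 33 listed genes had a tested target. Of these, 0 passed the adjusted test. In both pairs, 0 lay above the 0 ppb range and 3 below it (star, fdx1b and nr5a1b). Of all targets 3.61% lay above and 10.3% below. All 25 genes were well above background on all 7 arrays, and of the 11814 such symbols 9.29% lay above and 5.25% below. The median difference of the list was -0.23, against -0.36 for all targets, and 9 genes were positive and 16 negative. After quantile normalization the median was 0.032, with 1 above and 2 below the range. With the normexp background 0 lay above and 2 below. In each of these settings fdx1b stayed below, and star and nr5a1b did not both do so.

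Star, the cholesterol carrier that starts the pathway, had -3.34 and -3.60 at 0.3 ppb, against -2.54, -1.92, -2.77, -2.30 and -2.39 at 0 ppb. The 0.3 ppb arrays were below all 15 other ovary arrays, of which the lowest at 3 and 30 ppb was -3.24. The difference was -1.08 ± 0.57 (SE, adjusted p = 0.828), and both probes were lower. Nr5a1b, a nuclear receptor gene of the steroidogenic factor family, had -2.14 and -2.39 at 0.3 ppb, against -1.35, -1.79, -1.80, -1.41 and -1.58 at 0 ppb, with all 5 probes lower. Its copy nr5a1a had -2.03 and -1.61 at 0.3 ppb, against -1.26, -0.83, -1.38, -1.79 and -1.17 at 0 ppb, where the groups overlap.

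The enzymes that follow were near the controls. Cyp11a1.1, which cleaves the cholesterol side chain, had 4.84 and 4.82 at 0.3 ppb, against 4.72, 4.89, 4.66, 3.97 and 4.71 at 0 ppb. Cyp17a1, which makes androgen precursors, had 2.62 and 2.51 at 0.3 ppb, against 2.88, 2.2, 2.00, 2.15 and 2.32 at 0 ppb. Both sit inside the control range.

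Ovarian aromatase, cyp19a1a, had -2.04 and -0.36 at 0.3 ppb, against 0.08, -0.71, -0.19, -0.76 and -1.21 at 0 ppb. Only the array of replicate 2 was below the controls, and the sign of the difference (-0.65 ± 0.58, SE) turned to 0.20 without it. Brain aromatase, cyp19a1b, was dim throughout, at -7.35 and -6.88 at 0.3 ppb, against -7.28 to -4.56 at 0 ppb. Of the other listed genes, nr0b2a, a corepressor of nuclear receptors, had -5.86 and -4.82 at 0.3 ppb, against -5.42 to -3.26 at 0 ppb. Hmgcra, the rate-limiting step of cholesterol synthesis, had -2.83 and -3.49 at 0.3 ppb, against -3.18 to -1.22 at 0 ppb. Neither gene separated the groups.

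**Figure D3:**
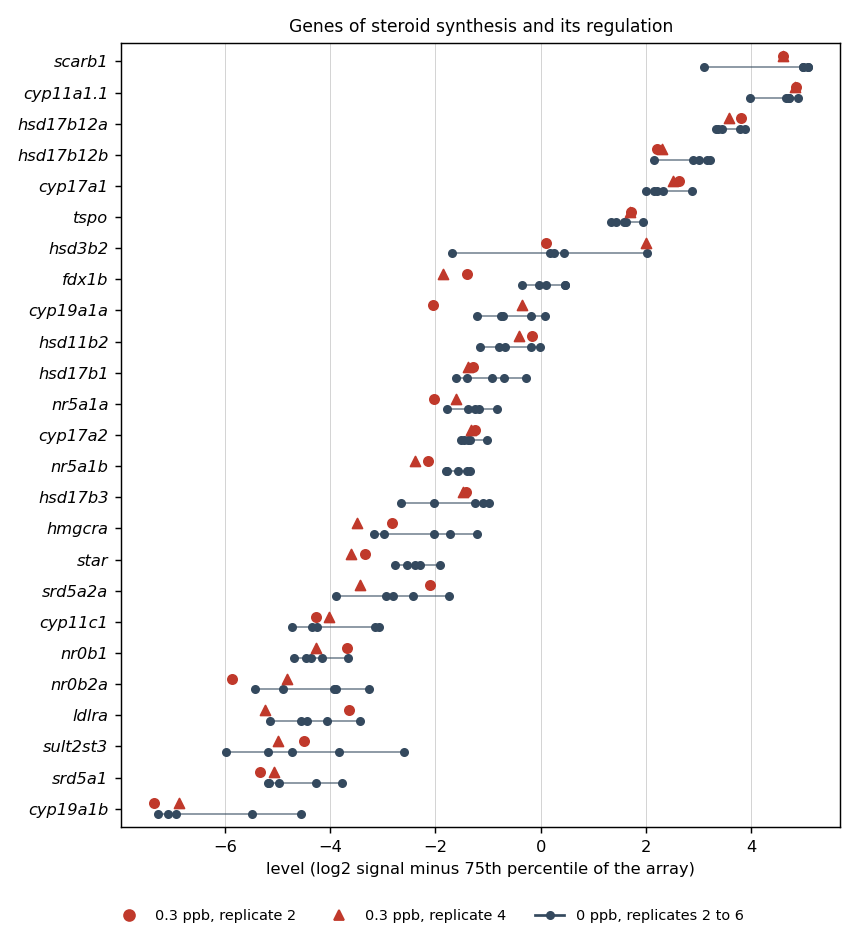
Levels (x axis, log2 signal minus the 75th percentile of the array) of the 25 tested genes of steroid synthesis and its regulation, sorted by the mean 0 ppb level, with the 0.3 ppb arrays of replicates 2 (red circle) and 4 (red triangle) above the 5 arrays at 0 ppb (dark points and line). Fdx1b, star and nr5a1b are the 3 genes with both red points left of the whole control line at the scaling shown.

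Of the neuropeptide and stress hormone genes that the study singled out, crhbp, which encodes the binding protein of corticotropin-releasing hormone, had -5.06 and -4.67 at 0.3 ppb, against -5.05, -5.30, -4.89, -3.92 and -3.95 at 0 ppb. Its difference was -0.24 over all controls and 0.21 within the sessions of replicates 2 to 4. Vip, the vasoactive intestinal peptide gene, had -5.50 and -7.53 at 0.3 ppb, against -4.93, -6.63, -5.12, -5.43 and -5.89 at 0 ppb, and lay well above background on 1 of 2 exposed and 4 of 5 control arrays. Adcyap1b, a gene of the related peptide PACAP, had -3.69 and -3.12 at 0.3 ppb, against -3.92, -3.63, -3.33, -2.31 and -2.95 at 0 ppb. Its copy adcyap1a had -7.23 and -6.63 at 0.3 ppb, against -6.88 to -5.11 at 0 ppb. None of these 4 genes separated the groups, and the sign of crhbp, adcyap1a, adcyap1b and vip differences depended on the setting. That list was chosen by the study on these samples, so it is not independent evidence of any direction.

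Genes that define the oocyte were as high as in the controls or slightly higher. The arrays were chosen for zp2.2, zp2.3 and cldnd, so these are left out of the counts, and the rest are a description. Of 15 other egg coat genes, 15 had a positive difference and 8 lay above the 0 ppb range on both 0.3 ppb arrays (0 below), with a median of 0.30. Of all targets 3.61% lay above, and of those at a 0 ppb level of 0 or more 13.2%. After quantile normalization the 15 genes had a median of 0.048, 12 were positive and 1 lay above the range, and the sign of zp2.3 and cldnd turned. With the normexp background 15 were positive and 5 lay above. Over all 17 tested egg coat genes, the median deviation from the control median was 0.22 and 0.31 on the 0.3 ppb arrays. It reached 0.44 on an array at 30 ppb and 0.40 on an array at 3 ppb. The egg coat gene zp2.1 had 7.81 and 8.04 at 0.3 ppb, against 7.11, 7.34, 7.66, 7.19 and 7.59 at 0 ppb. Zp2.5 had 8.47 and 8.72 at 0.3 ppb, against 7.94 to 8.41 at 0 ppb, and zp3b had 5.56 and 5.83, against 5.18 to 5.54. Zp3f.1 overlapped, with 7.34 and 7.31 at 0.3 ppb, against 5.96 to 7.53 at 0 ppb.

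Of 29 other oocyte and germ cell genes, 11 lay above the range and 1 below it, and after quantile normalization 4 lay above and 1 below. With the normexp background 9 lay above and 1 below. Over all 30 tested oocyte genes, the median deviation from the control median was 0.17 and 0.17 on the 0.3 ppb arrays. It reached 0.39 on an array at 30 ppb and 0.27 on an array at 3 ppb. Of all targets 3.61% lay above, and of those at a 0 ppb level of 0 or more 13.2%. Ddx4, the germ cell helicase vasa, had 1.86 and 2.18 at 0.3 ppb, against 1.63, 1.54, 1.80, 1.33 and 1.48 at 0 ppb. Ca15b, an oocyte carbonic anhydrase gene, had 6.17 and 6.13 at 0.3 ppb, against 5.85, 5.66, 5.59, 5.88 and 5.50 at 0 ppb. Dazl, the germ cell RNA-binding gene, had 3.94 and 3.87 at 0.3 ppb, against 3.68, 3.86, 3.87, 3.67 and 2.51 at 0 ppb, so its upper controls are level with the exposed arrays. The exception was btg4, which in the mouse is needed for clearing maternal mRNA, with 6.25 and 6.28 at 0.3 ppb, against 6.48, 6.96, 6.53, 6.73 and 6.55 at 0 ppb. Starmaker, stm, an otolith matrix gene listed with the oocyte genes, had -6.75 and -2.74 at 0.3 ppb, against -7.76 to -6.19 at 0 ppb, high on 1 array only.

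Of 18 tested genes of oocyte maturation and the meiotic cell cycle, 7 lay above the range and 0 below. After quantile normalization 2 lay above and 1 below, and with the normexp background 8 lay above and 0 below. The median deviation of the 18 genes from the control median was 0.24 and 0.21 on the 0.3 ppb arrays. It reached 0.34 on an array at 30 ppb and 0.25 on an array at 3 ppb. Cyclin B2, ccnb2, had 6.69 and 6.72 at 0.3 ppb, against 6.13, 6.58, 6.55, 6.29 and 6.33 at 0 ppb. Cyclin B1, ccnb1, had 5.95 and 6.05 at 0.3 ppb, against 5.58 to 5.80 at 0 ppb. The A cyclins overlapped the controls or their own pair, with ccna2 at 4.33 and 4.71, against 3.97 to 4.46, and ccna1 at 4.92 and 4.80, against 4.37 to 4.82. These shares are to be set beside the 13.2% of all targets at a 0 ppb level of 0 or more that lay above the range.

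The 24 tested follicle cell and stroma genes had a median difference of -0.39, near that of all targets, and of 0.0042 after quantile normalization. Of all targets 3.61% lay above the range and 10.3% below, and of symbols well above background on all 7 arrays 9.29% and 5.25%. Of the 24 genes, 0 lay above and 1 below. The one was inhbaa, the activin beta A subunit of granulosa cells, with -4.36 and -4.38 at 0.3 ppb, against -3.57, -3.25, -3.20, -4.06 and -3.81 at 0 ppb. It left the pattern after quantile normalization and with the normexp background. All 6 of its probes were lower and the array at 3 or 30 ppb nearest to it had -4.08. Col1a2, a collagen gene of stroma, differed between the exposed arrays, with -3.73 and -1.91 at 0.3 ppb, against -2.69 to -1.35 at 0 ppb. Of the 2 kit ligands, kitlgb had -6.44 and -6.06 at 0.3 ppb, against -6.71 to -4.47 at 0 ppb. Kitlga was not well above background on either 0.3 ppb array and was so on 3 of 5 controls, with -7.89 and -6.24 at 0.3 ppb, against -6.62 to -5.25 at 0 ppb. At such levels no fold is given.

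Of 20 tested hormone receptor genes, 2 lay above the range and 0 below, where 3.61% and 10.3% of all targets did. Pgrmc1, a membrane-associated progesterone receptor component, had 2.99 and 2.77 at 0.3 ppb, against 2.43, 2.28, 2.44, 1.96 and 2.2 at 0 ppb. Its difference was 0.62 ± 0.28 (SE, adjusted p = 0.828 in limma), and the 30 ppb array of replicate 3 was higher still at 3.25. Of all targets at a 0 ppb level of 0 or more, like pgrmc1, 13.2% lay above the range. The thyroid hormone receptor gene thrb had -0.90 and -1.06 at 0.3 ppb, against -1.31, -1.21, -1.27, -1.25 and -1.67 at 0 ppb. Membrane progestin receptor genes were dim. Paqr7b, not well above background on either 0.3 ppb array, had -7.07 and -8.30 at 0.3 ppb, against -7.22 to -5.50 at 0 ppb, and its sign turned with the normexp background. Paqr7a had -4.39 and -4.44 at 0.3 ppb, against -4.61 to -2.12 at 0 ppb. Gnrhr1, a receptor of gonadotropin-releasing hormone, had -4.78 and -4.61 at 0.3 ppb, against -4.63 to -2.14 at 0 ppb. Gper1, the membrane estrogen receptor, had -5.92 and -6.95 at 0.3 ppb, against -6.88 to -3.95 at 0 ppb. For paqr7a, gnrhr1 and gper1 the upper controls are those of the separate scan session.

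Genes of the aryl hydrocarbon receptor pathway, which answers to many foreign chemicals, gave 0 above and 2 below the range of 12 tested. Of all targets 10.3% lay below. All 12 were well above background on all 7 arrays, and 5.25% of such symbols lay below. After quantile normalization 0 of the 12 lay below, and with the normexp background 1 did. Ahr2, the main zebrafish receptor, had -2.52 and -2.49 at 0.3 ppb, against -2.39, -2.15, -2.19, -1.88 and -1.98 at 0 ppb. Cyp1d1, a cytochrome P450 gene, had -4.43 and -3.01 at 0.3 ppb, against -2.36, -2.10, -2.91, -2.51 and -1.91 at 0 ppb. Tiparp, a target and repressor of the receptor, had -2.79 and -2.39 at 0.3 ppb, against -2.62 to -1.09 at 0 ppb, and ahr1b and ahrrb also overlapped the controls.

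Of 36 tested stress response genes, 4 lay above the range and 0 below, where 3.61% of all targets and 13.2% of those at a 0 ppb level of 0 or more lay above. After quantile normalization or with the normexp background 2 lay above. Hmox1b, a heme oxygenase gene, had 2.72 and 1.95 at 0.3 ppb, against 1.67, 1.79, 1.41, 1.91 and 0.91 at 0 ppb. Hspa5, the chaperone BiP of the endoplasmic reticulum, had 6.13 and 6.12 at 0.3 ppb, against 5.39, 5.72, 5.70, 5.81 and 5.79 at 0 ppb. Hsp90ab1, a cytosolic chaperone gene, had 6.64 and 6.42 at 0.3 ppb, against 6.12 to 6.35 at 0 ppb, and atf4a, a transcription factor of the integrated stress response, had 4.86 and 4.70, against 4.30 to 4.68. Hmox1a, gadd45ba and txnb, which answer to oxidative or DNA damage, each had 1 exposed array within the controls and turned sign when the other was left out.

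Of 25 tested apoptosis genes, 0 lay above the range, where 3.61% of all targets and 9.29% of symbols well above background on all 7 arrays did. Below it lay 10.3% of all targets and 5.25% of those symbols. Among the listed genes below it was tnfrsf1a, a death receptor gene. It had -3.31 and -2.85 at 0.3 ppb, against -2.84 to -2.15 at 0 ppb, and was no longer below after quantile normalization. Bida, a proapoptotic gene, was low on 1 exposed array only, with 0.93 and 2.72 at 0.3 ppb, against 2.02 to 2.91 at 0 ppb. Casp6a, a caspase gene, had -4.84 and -4.10 at 0.3 ppb, against -4.29 to -2.59 at 0 ppb. Of 12 DNA methylation genes, mbd3a, a methyl-CpG-binding domain gene, lay above the range with 2.71 and 2.73 at 0.3 ppb, against 2.41, 2.23, 2.31, 2.47 and 2.28 at 0 ppb. Of all targets 3.61% lay above, and of those at a 0 ppb level of 0 or more 13.2%. The maintenance methyltransferase dnmt1 had 2.09 and 1.69 at 0.3 ppb, against 2.13, 4.94, 1.47, 5.14 and 2.72 at 0 ppb, with 2 controls far above the others.

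Of 16 prostaglandin genes, 0 lay above and 3 below the range, where 3.61% and 10.3% of all targets did. Of symbols well above background on all 7 arrays, as 13 of the 16 were, 9.29% lay above and 5.25% below. Ptgis, the prostacyclin synthase gene, had -4.87 and -4.33 at 0.3 ppb, against -4.24, -3.31, -3.81, -4.20 and -3.83 at 0 ppb. The receptor genes ptger4a (-3.18 and -3.31 at 0.3 ppb, against -3.15 to -2.46 at 0 ppb) and ptger2a (-4.77 and -4.64, against -4.62 to -2.18) each had 1 exposed array close to the lowest control. All 3 left the pattern after quantile normalization, which put 0 of the 16 below the range.

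Clock genes were mostly within the controls, with 2 above and 1 below the range of 20 tested, where 3.61% and 10.3% of all targets were. All 20 were well above background on all 7 arrays, and of such symbols 9.29% lay above and 5.25% below. The positive arm gene bmal1a had 3.91 and 3.87 at 0.3 ppb, against 3.59, 3.74, 3.76, 3.47 and 3.39 at 0 ppb. The repressor cry1b had 0.50 and 0.51 at 0.3 ppb, against 0.19 to 0.35 at 0 ppb. The clock output gene dbpa had -5.43 and -5.49 at 0.3 ppb, against -4.78, -4.86, -4.84, -3.67 and -3.87 at 0 ppb. The clock repressor bhlhe41, named after its values were seen, had -5.90 and -5.12 at 0.3 ppb, against -4.24, -3.83, -3.52, -4.98 and -4.91 at 0 ppb.

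Because junbb was among the named genes, a list of immediate early genes, which switch on within minutes of a stimulus or of handling, was drawn up after the values were seen. Of the 18 tested besides junbb, 15 were negative, 0 lay above and 4 below the range, where 10.3% of all targets lay below. All 18 were well above background on all 7 arrays, and 5.25% of such symbols lay below. The median of the 18 was -0.62 over all controls, where that of all targets was -0.36. Within the sessions of replicates 2 to 4 it was -0.45, where the median of all targets was -0.03. After quantile normalization it was -0.25, with 2 of the 18 below the range. Over all 19 listed genes, junbb included, the median deviation from the control median was -0.73 in replicate 2 and -0.31 in replicate 4 at 0.3 ppb. On the 10 arrays at 3 and 30 ppb it ran from -0.56 to 0.27, so the array of replicate 4 was within their range. Ier2a had -2.28 and -1.48 at 0.3 ppb, against -1.31, -0.40, -0.38, -1.10 and -0.60 at 0 ppb. Fosl2 had -4.32 and -3.51 at 0.3 ppb, against -3.07, -2.97, -2.79, -3.03 and -2.82 at 0 ppb, with all 9 probes lower. Dusp5, a MAP kinase phosphatase gene, had -0.65 and -0.73 at 0.3 ppb, against 0.33, 0.24, 0.06, -0.09 and -0.27 at 0 ppb. Jund was nearest to the controls of the 4, with -3.94 and -4.07 at 0.3 ppb, against -3.89 to -3.22 at 0 ppb, and turned sign after quantile normalization. Fosab did not separate the groups, with -1.25 and -1.45 at 0.3 ppb, against -1.54 to -0.22 at 0 ppb. How long dissection took is not given in the sources used here, and its part in these values was not tested.

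The 2 arrays at 0.3 ppb differed widely from each other in transcripts of tissues other than the ovary. Of 69981 targets, 1254 (1.79%) had replicate 2 above and replicate 4 below every control, and 960 (1.37%) had the reverse. Over all targets the SD of the differences between the 2 arrays was 1.08. It was 0.91 to 0.99 between each of them and the controls of replicates 2 to 4, so the 2 arrays were somewhat further apart. Differences of at least 4-fold came to 4.86% between the 2 arrays. Against those controls they came to 4.16 to 5.21% for replicate 2 and 3.57 to 3.89% for replicate 4. The liver fatty acid binding protein gene fabp10a had 6.04 in replicate 2 and -4.33 in replicate 4 at 0.3 ppb, against 0.13, 4.36, 3.26, 4.10 and 5.49 at 0 ppb. Apoa1b, the main apolipoprotein of liver HDL, had 5.86 and -4.69 at 0.3 ppb, against -0.50, 3.56, 2.45, 2.77 and 5.67 at 0 ppb. Plg, the plasminogen gene, had 0.38 and -8.04 at 0.3 ppb, against -6.17, -2.45, -3.07, -1.86 and 0.21 at 0 ppb. One exposed array thus lay at the top and the other below the bottom of a wide control range. The 10 arrays at 3 and 30 ppb spread as far, with fabp10a from -5.52 to 6.18 and apoa1b from -5.54 to 6.76. Over 14 tested liver genes the median level was 2.64 in replicate 2 and -4.41 in replicate 4 at 0.3 ppb, against -3.28, 0.26, -0.25, 0.36 and 2.69 at 0 ppb, and apoa2, another liver apolipoprotein gene, had 5.44 and -5.45 at 0.3 ppb.

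Vitellogenin transcripts followed the liver genes array by array. Vtg6 had 7.05 and -3.47 at 0.3 ppb, against 1.47, 5.18, 5.05, 5.10 and 7.23 at 0 ppb. Vtg2 had 5.64 and -4.77 at 0.3 ppb, against -0.71, 3.06, 3.14, 3.73 and 5.84 at 0 ppb, and vtg4 and vtg5 had 7.04 and 6.94 in replicate 2 and -2.89 and -3.48 in replicate 4. The median of 5 vitellogenin genes was 5.92 above its pair in replicate 2 and 7.91 below it in replicate 4 (-7.91). A mean over the 2 arrays (-3.02 for vtg6) describes neither. Vitellogenin genes are near-identical copies, so their probes may share signal.

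Replicate 2 also carried transcripts of the endocrine pancreas, which were looked at after the values were seen. Insulin, ins, had 3.38 in replicate 2 and -4.66 in replicate 4 at 0.3 ppb, against -4.58, -4.36, -4.01, -2.52 and -2.47 at 0 ppb. Its highest level on the 10 arrays at 3 and 30 ppb was -1.39. The glucagon gene gcga had 1.72 and -5.70 at 0.3 ppb, against -6.60 to -4.87 at 0 ppb, its copy gcgb had 1.03 and -6.55, against -7.42 to -6.07, and the somatostatin gene sst2 had 0.93 and -3.90, against -4.94 to -2.89. These 4 hormone genes were higher on the 0.3 ppb array of replicate 2 than on all 16 other ovary arrays. Of 15 tested islet genes, 8 were positive and 7 negative. Above the range on both exposed arrays lay 1 and below it 3, where 3.61% and 10.3% of all targets did. The one above was the transcription factor gene pdx1, described with the named genes, and the 3 below were transcription factor genes too. Nkx2.2a had -7.21 and -7.16 at 0.3 ppb, against -7.15 to -4.91 at 0 ppb, pax6b had -5.26 and -5.34, against -5.22 to -3.26, and arxa had -5.90 and -5.17, against -5.10 to -3.15, each with its upper controls in the separate scan session.

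Digestive enzyme genes of the exocrine pancreas were higher on the same array. Their median over 18 tested genes was 0.25 in replicate 2 and -4.36 in replicate 4 at 0.3 ppb, against -3.92, -1.40, -3.23, -2.60 and -2.66 at 0 ppb. Other doses reached higher, with 5.41 for the trypsin gene prss59.1 on an array at 3 or 30 ppb, against 2.6 in replicate 2 at 0.3 ppb. The globin gene hbaa2 had 1.96 and -2.22 at 0.3 ppb, against -2.72, -2.36, -2.10, -1.38 and -1.82 at 0 ppb, and hbba2 had 2.08 and -2.39, against -2.64 to -1.11. Hbaa1 repeated the order with -0.56 and -4.46 at 0.3 ppb, against -5.15 to -2.54 at 0 ppb. Of 10 tested blood markers, 9 were above their pair in replicate 2 and 1 in replicate 4. The part of these tissues in any other difference of the 0.3 ppb arrays was not tested.

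**Figure D4:**
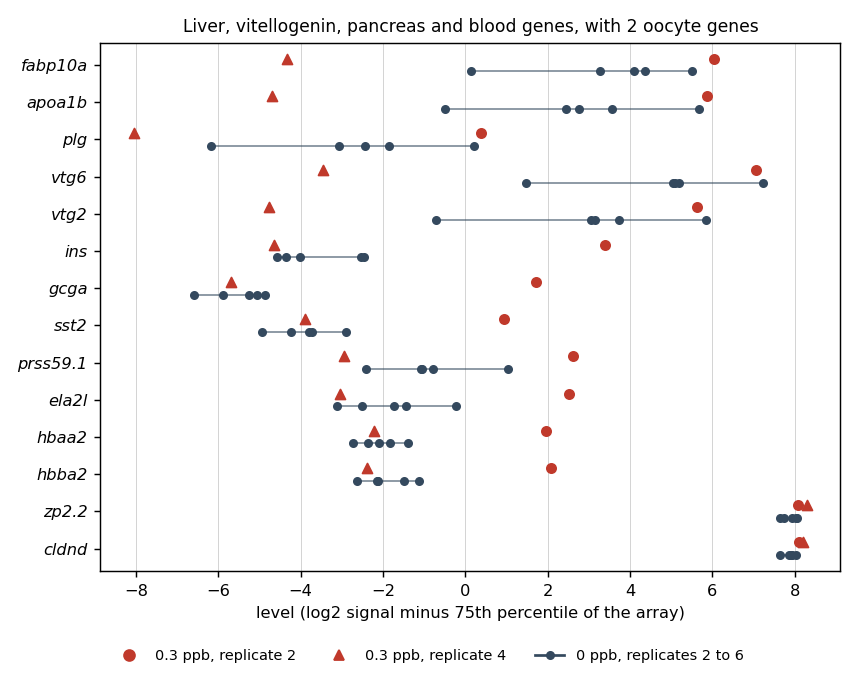
Levels (x axis, log2 signal minus the 75th percentile of the array) of liver, vitellogenin, pancreas and blood genes and of 2 oocyte genes, with the 0.3 ppb arrays of replicates 2 (red circle) and 4 (red triangle) above the 5 arrays at 0 ppb (dark points and line). Fabp10a lies at 6.04 and -4.33 on either side of all controls, ins at 3.38 and -4.66, and the oocyte genes zp2.2 and cldnd lie together near 8.

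**Figure D5:**
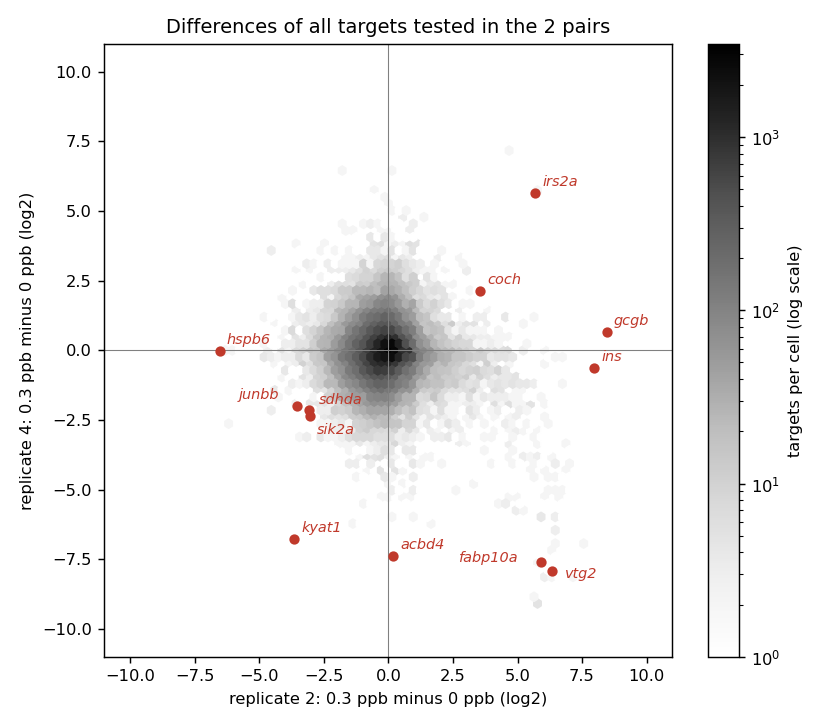
Difference of 0.3 ppb minus 0 ppb (log2) in the pair of replicate 2 (x axis) against that in the pair of replicate 4 (y axis), with grey cells for all targets tested and red points for 12 genes of the text. A tail of targets runs to the lower right, where fabp10a and vtg2 lie, kyat1 is low in both pairs, and irs2a is high in both.

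Other tissues were less marked, with counts to be read against 3.61% of all targets above the range and 10.3% below. Of symbols well above background on all 7 arrays, 9.29% lay above and 5.25% below. Of 16 muscle markers, 0 lay above and 0 below the range, and muscle creatine kinase, ckma, had -1.59 and -1.79 at 0.3 ppb, against -1.63 to -0.46 at 0 ppb. Tropomyosin 2, tpm2, a muscle filament gene named after its values were seen, was higher, with 0.11 and 0.05 at 0.3 ppb, against -1.22, -1.54, -1.79, -1.03 and -1.24 at 0 ppb. Of 11 tested testis markers, ropn1l, a sperm tail gene, lay above the range with -0.66 and -0.01 at 0.3 ppb, against -2.78, -0.96, -1.16, -0.99 and -2.90 at 0 ppb, and sox9a lay below it, where it was not well above background on either exposed array. The medians of 12 immune markers were -3.76 and -2.45 at 0.3 ppb, against -3.62, -2.40, -2.82, -2.79 and -2.81 at 0 ppb.

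Some genes, singled out after their values were seen, were low on 1 exposed array only. Acbd4, an acyl-CoA binding protein gene, had 0.34 in replicate 2 and -7.63 in replicate 4 at 0.3 ppb, against 0.16, -0.34, -0.26, -0.16 and -0.60 at 0 ppb, and its lowest level at 3 and 30 ppb was -0.50. Its level rested on 1 probe, which was well above background on only 1 of the 2 exposed arrays. Hspb6, a small heat shock protein gene, had -8.00 in replicate 2 and -1.37 in replicate 4 at 0.3 ppb, against -1.46, -1.79, -1.35, -0.51 and -0.39 at 0 ppb, and its lowest level at 3 and 30 ppb was -1.51. In each case 1 exposed array was far below the other 16 ovary arrays and its companion was level with them.

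Of the targets with no symbol in the reference, 3 are given because they stood apart on both exposed arrays, a choice made after their values were seen. In their fold limits each array not well above background counts at the lowest signal that was so on it, or at its own level if that is higher. AB055667 had -8.00 and -8.19 at 0.3 ppb, not well above background on either array, against 2.35, 1.18, 1.18, 1.21 and 2.16 at 0 ppb. It was at least 838-fold lower at 0.3 ppb, with an adjusted p of 0.828 in limma on 17 arrays (0.00401 to 1.00 over the settings tried, under 0.05 in 2 of 19), and levels at 3 and 30 ppb ran from -7.34 to 2.47. ENSDART00000132832 had -3.49 and -3.49 at 0.3 ppb, against -8.99, -8.63, -8.26, -7.39 and -6.03 at 0 ppb, where it was not well above background on any array. It did not exceed -6.93 at 3 and 30 ppb, rested on 1 probe and was at least 19.9-fold higher at 0.3 ppb, with an adjusted p of 0.256 in limma (9.87e-05 to 1.00 over the settings tried, under 0.05 in 5 of 19). A_15_P320431 had -4.28 and -2.38 at 0.3 ppb, against -8.99, -8.63, -8.25, -7.97 and -6.96 at 0 ppb, where it was again not well above background on any array. It was at least 27.2-fold higher at 0.3 ppb, with an adjusted p of 0.828 in limma (9.31e-06 to 1.00, under 0.05 in 4 of 19), and reached -4.18 at 3 or 30 ppb.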

How the data were processed

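RNA from ovarian tissue was hybridised to 1-colour Agilent arrays, 4 to a slide. Per the file headers, the deposited intensity values are Agilent Feature Extraction 11.5 output, and the processed signal used here is an intensity that the software had already corrected for background. No genome build is needed, and sequences were not used here.

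Outlier marks set by the software removed a spot, each array was divided by the 75th percentile of its noncontrol spots, and log2 was taken with a floor of 1 on the intensity. Spots of a probe and then probes of a target were averaged. Of 89208 targets, 71004 passed the filter on background and 70432 were tested. A symbol was taken from the reference table by accession, which gave 13168 symbols, and a symbol with several targets used the one with most probes kept, then the first by accession. Of 406 listed genes, 349 had a tested target.

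The main test was limma 3.58.1 (R 4.3.3) with a mean per dose on 17 arrays, leaving out replicate 1 and the 0.3 ppb arrays of replicates 3, 5 and 6, with Benjamini-Hochberg adjustment at 0.05 and a 1.5-fold limit. The methods' ANOVA with Tukey's comparison, a replicate block, scan session as a block, array weights, quantile normalization, normexp on the median and background signals (offset 50), filters and arrays left out were alternatives. Of these, leaving out the 2 arrays at 3 and 30 ppb with a poor grid and keeping only scan sessions 2 and 3 were added after seeing the data.

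Same-numbered arrays came from groups started on their own day and share a slide. Over 63597 targets, 17 of 21 same-numbered pairs of arrays correlated in their deviations at over 0.1 (median 0.35). Between numbers 30 of 84 pairs did so (median -0.14, highest 0.68). The highest was between the 0 ppb array of replicate 5 and the 30 ppb array of replicate 6, which shared a scan session. The part of the session in these correlations was not tested. The 0.3 and 0 ppb arrays of one number gave -0.06 in replicate 2 and 0.06 in replicate 4. With 2 arrays at 0.3 ppb their deviations are mirror images, so these values say little about pairing. The fit was tested on simulated data of 70432 targets. P-values measure the spread between these arrays, whose number limits the precision.

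The arrays, members and lists were chosen with earlier results of these data known. The genes named are those of the array choice, those the study names, the 10 in each direction outside the 0 ppb range with the largest smaller pair difference, and up to 4 members of each list. The immediate early, islet and exocrine pancreas lists, and genes said to be so, were chosen after their values were seen. The result of 1 listed gene is not reported here.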

Additional observations from a re-analysis of the deposited data

Results flagged for a closer look

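In 6 of 135 groups of 5 control arrays that were examined, the lowest array stood apart from the others by Dixon's criterion, and chance alone marks about 1 in 20 groups. Cyp11a1.1 had 3.97 on the 0 ppb array of replicate 5, and its gap to the next control was 0.744 of the whole range. The 0 ppb array of replicate 4 had 0.94 for junbb (0.804 of the range). On the array of replicate 6 at 0 ppb, dazl had 2.51 (0.852 of the range) and thrb had -1.67 (0.773). On the array of replicate 2 at 0 ppb, hspa5 had 5.39 (0.745) and tnfrsf1a had -2.84 (0.813). For dazl, hspa5 and thrb, both 0.3 ppb arrays lay above the other 4 controls or level with them, and for junbb and tnfrsf1a they lay below even the low array.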

How the results depend on the processing

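The count of targets passing the adjusted test was 0 in both directions, and depended on the arrays. Targets higher at 0.3 ppb numbered 5 after quantile normalization, 2 with scan session as a block, 6 with array weights, 3 without the arrays of poor grid and 8 with only sessions 2 and 3. Targets lower at 0.3 ppb numbered 4 with only the 7 arrays and 8 with array weights. The methods' test gave 63 higher and 389 lower, and the unadjusted p 314 higher and 2375 lower. Leaving out 1 array gave 0 to 6 higher and 0 to 6 lower, with 6 and 6 without 0.3 ppb replicate 2, 5 and 5 without 0.3 ppb replicate 4, and 1 higher without 0 ppb replicate 6. With the replicate block the adjusted counts stayed at 0, and ripply2 had -1.96 (adjusted p = 0.262 in limma).

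The count of targets above the 0 ppb range was 6277 with only sessions 2 and 3, and 2908 to 8961 with 1 array left out (6956 without 0.3 ppb replicate 2, 8961 without 0.3 ppb replicate 4, 3811 without 0 ppb replicate 2). The count below was 3102 after quantile normalization, 1873 with normexp, 4001 among targets above background on all 7 arrays and 7750 to 19334 with 1 array left out (15292 without 0.3 ppb replicate 2, 19334 without 0.3 ppb replicate 4, 11188 without 0 ppb replicate 4). The share of these calls that was higher was 38.0% above background on all 7 arrays and 40.1% within sessions 2 and 3. The cause was not tested.

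Of 110 genes, 79 kept their sign in all 20 settings. Differences turned to -0.039 (zp2.3), -0.020 (cldnd), 0.22 (crhbp), 0.022 (adcyap1a), 0.13 (adcyap1b) and 0.078 (jund) after quantile normalization, to 0.13 (vip), 0.11 (adcyap1a), 0.060 (kitlga), 0.035 (paqr7b) and 0.15 (plg) with normexp, and to 0.30 (bida) with the median over probes. With the replicate block on 17 arrays they turned to 0.14 (crhbp), 0.13 (adcyap1b) and 0.24 (gper1), and with that block on the 7 arrays to 0.10 (crhbp), 0.22 (adcyap1b), 0.22 (gper1), 0.091 (dnmt1) and 0.79 (plg). With scan session as a block they turned to 0.11 (crhbp), 0.27 (adcyap1b) and 0.013 (gper1), with array weights to 0.055 (crhbp) and 0.073 (adcyap1b), and within sessions 2 and 3 to 0.21 (crhbp), 0.22 (adcyap1b), 0.069 (gper1) and 0.064 (plg).

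With 1 array left out, differences ranged from -1.49 to 0.20 (cyp19a1a), -1.93 to 0.10 (vip), -0.46 to 0.11 (adcyap1b), -1.73 to 0.089 (col1a2), -1.79 to 0.042 (gadd45ba), -1.90 to 0.21 (txnb), -1.86 to 0.24 (hmox1a) and -1.48 to 0.32 (bida). In liver and yolk genes they ranged from -7.79 to 2.62 (vtg2), -7.59 to 2.34 (vtg4), -7.92 to 2.5 (vtg5), -8.27 to 2.24 (vtg6), -7.80 to 2.57 (fabp10a), -7.86 to 3.03 (apoa2), -7.48 to 3.07 (apoa1b) and -5.38 to 3.05 (plg). The others ranged from -0.60 to 3.29 (hbaa1), -0.14 to 4.04 (hbaa2), -0.49 to 3.98 (hbba2), -1.07 to 6.97 (ins), -0.17 to 7.26 (gcga) and -7.39 to 0.57 (acbd4). In each case the extremes are the fits without 1 of the 2 arrays at 0.3 ppb. Low signal over background limits genes such as vip and kitlga.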
